A study of Neurospora crassa with 6 samples.

Results

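Protein kinase genes of the filamentous fungus Neurospora crassa were followed in darkness and at 2 light intensities in a strain labelled as deleted for 3 photoreceptor genes. Members were all genes of the deposited table whose symbol begins with stk, prk, camk, mak, mek, mik, nrc, pkac or cot followed by a number. This gave 79 of 10559 genes, of which 53 are stk (serine/threonine kinase) and 9 are prk genes. The remainder are 4 camk genes (calcium/calmodulin-dependent kinases), 6 genes of MAP kinase modules (mik-1, mek-1, mak-1, nrc-1, mek-2 and mak-2), the protein kinase A genes pkac-1 and pkac-2, the kinase gene nrc-2, and 4 cot genes. The cot symbol names a temperature-sensitive colonial growth form and not a protein family. Of the 4 cot genes only cot-1 encodes a kinase, cot-3 encodes translation elongation factor 2, and the reference table gives cot-5 the synonym alg2 and cot-2 the synonym gs-1. The symbol rule therefore holds 76 kinase genes and 3 others (cot-2, cot-3 and cot-5), and the counts of members that passed a test were the same with these 3 left out.

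Strains were kept on minimal slants for 2 weeks. Hyphae of the genotype labelled delta_cry, delta_vvd, delta_wc-1 were kept in medium with 2% glucose for 45 min in the dark, at 1000 lux or at 5000 lux, with 2 libraries of polyadenylated RNA for each condition. All 6 libraries carry the same labelled genotype, meant to lack the blue-light receptors White Collar-1 and VIVID and the cryptochrome, and no strain with these genes intact was analysed here. Whether the strain is a single isolate, and whether the libraries of a group are from separate cultures, is not in the labels, and p-values measure the spread between libraries only, which may be technical. Levels are in RPKM (reads scaled to gene length and to sequencing depth), which can be compared between genes.

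The denominators of the RPKM, recovered from the steps between values, lay between 21420000 and 28260000 reads, and dark replicate 2 was the deepest library. In a gene of 2000 bp 1 read equals 0.0177 to 0.0233 RPKM, counting error only. The labelled deletions did not read 0: wc-1 lay between 6.31 and 9.04 RPKM, vvd between 1.95 and 3.44 and cry between 1.59 and 2.56 in the 6 libraries. The hyphal gene hex-1, which encodes the Woronin body protein, had 1035 to 1220 RPKM. The summed level of 5 spore genes (con-6, con-8, con-10, con-13 and eas) ranged from 194 to 237 RPKM in the dark, 104 to 109 at 1000 lux and 183 to 254 at 5000 lux, nearly all of it eas and con-8, with con-6 and con-13 under 1 RPKM in every library. The summed level of 5 genes of sexual development ranged from 65.3 to 67.5 RPKM in the dark, 136 to 171 at 1000 lux and 68.1 to 69.1 at 5000 lux, nearly all of it asd-1. At 1000 lux against dark, eas was lower and con-10 and asd-1 were higher (limma adjusted p under 0.05). Between 5000 and 1000 lux, eas was higher at 5000 lux (1.42 on the log2 scale). There asd-1 (-1.16) and con-8 (-0.96) were lower, by the same test and threshold. The part of these marker differences in the kinase results was not tested.

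Protein kinases transfer phosphate from ATP to other proteins, and their activity is set mainly by phosphorylation, second messengers and partner proteins. MAP kinase modules pass a signal from a MAP kinase kinase kinase (MAPKKK) to a MAP kinase kinase (MAPKK) and on to a MAP kinase (MAPK). In Neurospora such modules serve cell wall integrity, cell fusion and osmosensing, the kinase COT-1 serves tip growth of hyphae, and protein kinase A and casein kinases phosphorylate parts of the circadian clock. Transcript levels do not measure the activity of these enzymes.

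Kinase transcripts covered a wide range of levels and differed little between libraries. Mean levels over the 6 libraries ran from 0.0326 RPKM for stk-54 to 126 for camk-1 among the 76 kinases, with a median of 16.1 RPKM, against 8.05 for the median gene of the whole table. Of the 76 kinases, 54 lay above that median, 9 were under 1 RPKM, and camk-1 and mak-2 were the 2 at 100 RPKM or more. Translation elongation factor 2, cot-3, lay far above them at 857 to 957 RPKM. The kinases are long genes by the length recovered from the RPKM steps, with a median of 3187 bp against 1916 bp over the table.

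**Figure D1:**
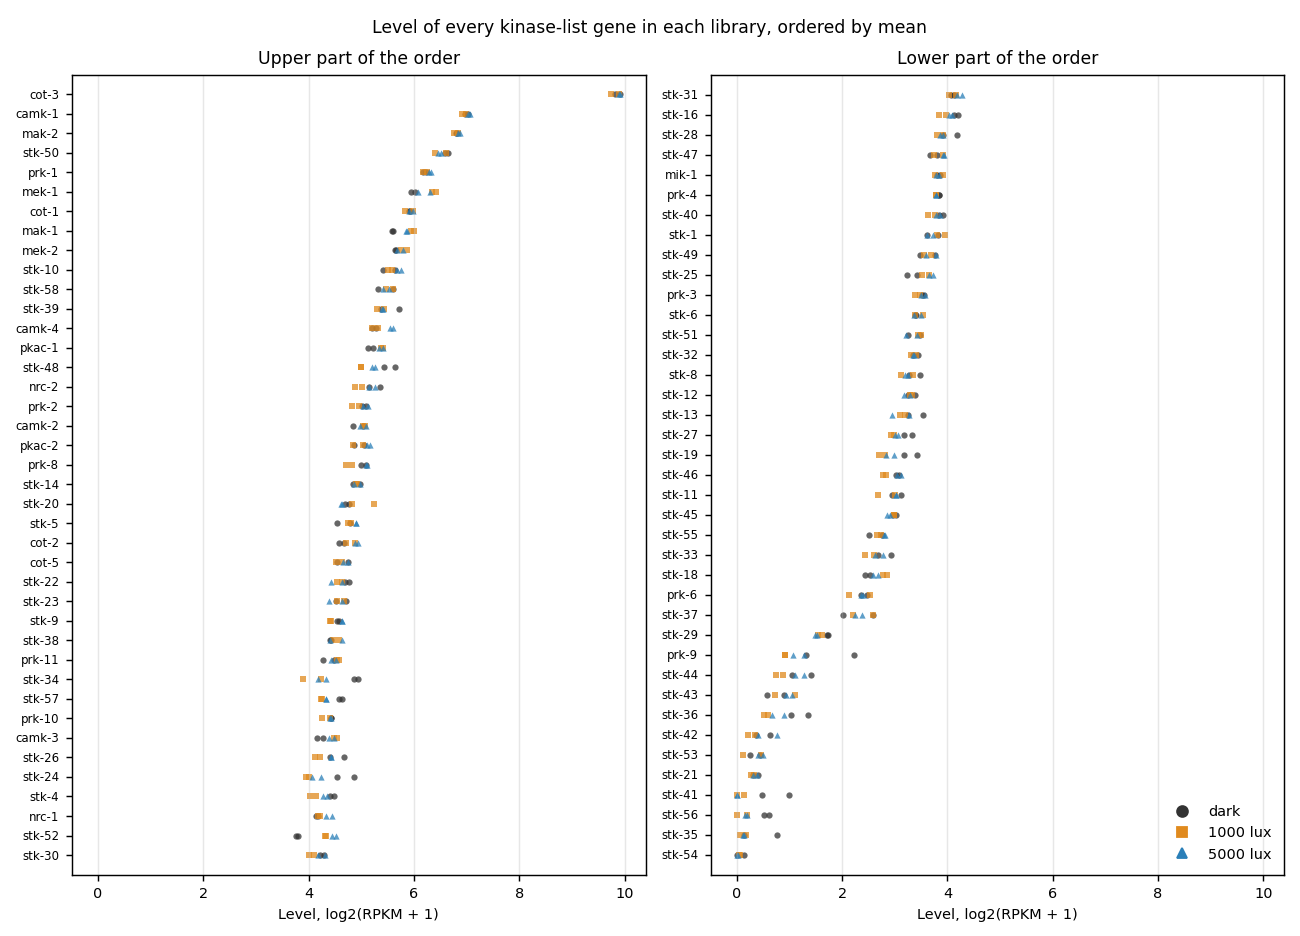
Level of all 79 members on a log2(RPKM + 1) scale (horizontal axis), 1 row per gene ordered by the mean over the libraries, in 2 panels; each point is 1 library (circles dark, squares 1000 lux, triangles 5000 lux). cot-3 stands apart at the top, most rows are narrow, and wider rows are found among the genes near 0 and in stk-34, stk-24 and stk-52.

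A minimum of 1 RPKM in at least 2 libraries was met by 72 of the 79 members, and 7 stk genes were not tested. Among the 72, the highest of the 6 libraries was less than 1.5 times the lowest in 59 (81.9%), against 64.6% of all genes tested. In 67 of 72 (93.1%) it was less than 2 times the lowest, against 87.3% of all genes tested. This ratio includes the spread between replicates, which was also smaller in the members. The median absolute log2 difference between replicates was 0.098 in the dark, 0.103 at 1000 lux and 0.073 at 5000 lux. Over all genes tested it was 0.142, 0.110 and 0.103. Recovered reads per tested member and library ran from 22 to 89735, with a median of 1563. The 79 members had a higher median level than all genes tested, 17.2 against 13.8 RPKM. They were also longer, with a median of 3210 against 2139 bp. The part of level and length in the smaller spread was not tested.

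At 1000 lux against darkness, 3 members were higher (stk-52, mek-1 and mak-1) and 7 were lower, all of these in the stk series (stk-34, stk-24, stk-48, stk-19, stk-57, stk-4 and stk-26). These calls are at an adjusted p under 0.05 in limma, adjusted by Benjamini-Hochberg over the 7841 genes tested. The 10 calls are 13.9% of the 72 members, close to the 16.9% of all genes tested. By direction the shares were 4.17% higher and 9.72% lower, against 9.13% and 7.82% over all genes. The median log2 fold change of the members was -0.022, beside 0.001 over all genes. The libraries of the 2 conditions did not overlap in 13 of 72 members on the higher and 27 of 72 on the lower side, 55.6% together. Over all genes tested this held for 2375 and 2238 of 7841 (30.3% and 28.5%), 58.8% together. Leaving out 1000 lux replicate 1 gave 1 call on the higher and 3 on the lower side, and leaving out 1000 lux replicate 2 gave 4 and 3. Leaving out dark replicate 1 reduced the lower calls to 4. limma voom on the recovered reads gave 5 and 11.

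At 5000 lux against the same dark libraries, 2 members were higher (stk-52 and camk-4) and 2 lower (stk-34 and stk-24). The 4 calls are 5.56% of the members, below the 9.62% over all genes; by direction the shares were 2.78% each, against 6.70% higher and 2.92% lower. At an unadjusted p under 0.05 there were 14 members (19.4%), against 24.9% of all genes. Libraries did not overlap in 23 of 72 members on the higher and 18 of 72 on the lower side, 56.9% together. Over all genes tested this held for 2339 and 1812 of 7841 (29.8% and 23.1%), 52.9% together. Without either 5000 lux library the lower count was 0, and without each of the 6 libraries in turn the higher count was 1, stk-52. Scaling moved the lower count to 4 with median-of-ratios factors and 5 with quantile normalization, and limma voom gave 5. Both light comparisons share the dark libraries, so their values are not independent of each other.

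**Figure D2:**
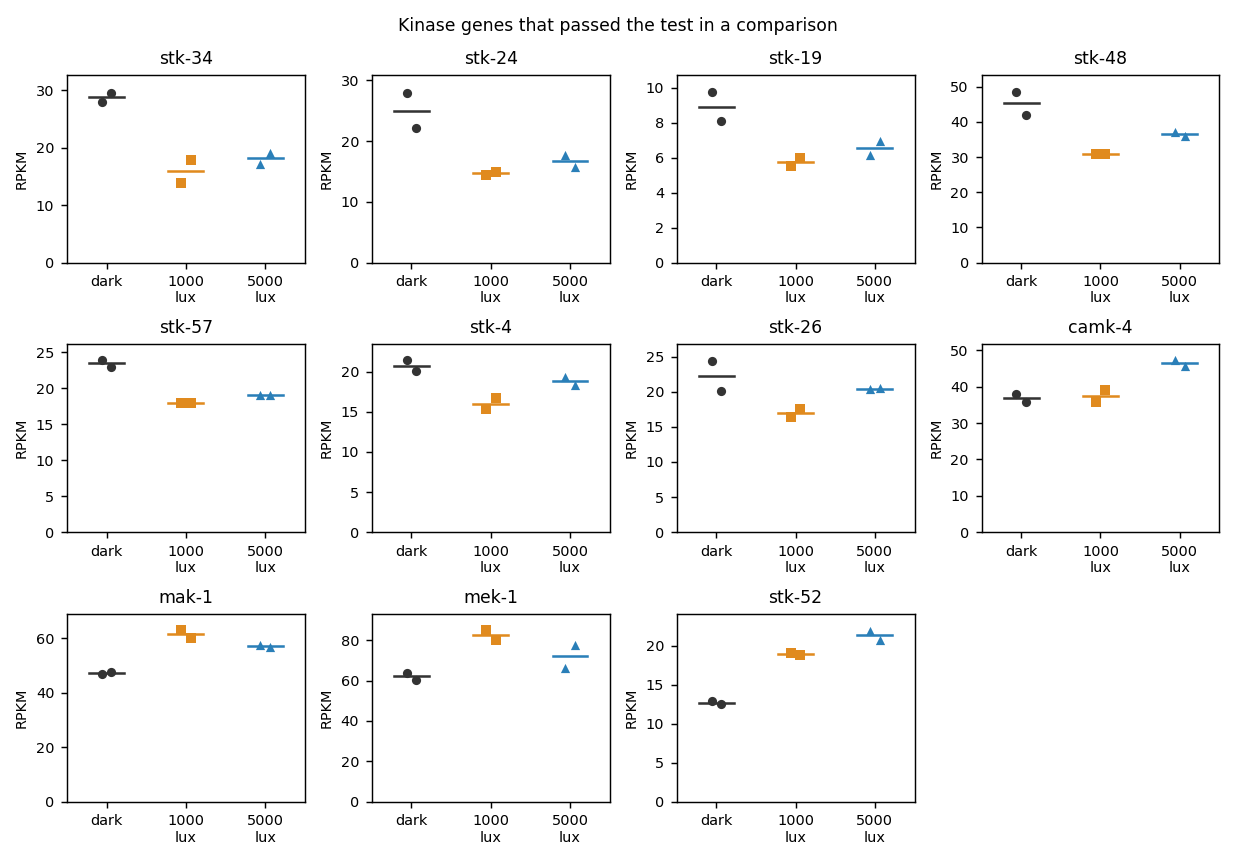
RPKM (vertical axes, from 0) of the 11 members that passed the test in a comparison, by condition; each point is 1 library and each line the mean of 2. In the first 7 panels both dark libraries lie above both 1000 lux libraries, and in mak-1, mek-1 and stk-52 below them; in camk-4 the 5000 lux libraries stand apart.

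stk-52 (NCU08767) was the member with the largest increase at both intensities. It had 12.9 and 12.5 RPKM in the dark, 19.1 and 18.9 at 1000 lux, and 21.9 and 20.8 at 5000 lux. No library of a light condition came near the dark values, and both 5000 lux libraries lay above both at 1000 lux. The mean RPKM rose 1.50-fold at 1000 lux and 1.68-fold at 5000 lux. On the log2(RPKM + 1) scale of the fit the change was 0.55 at 1000 lux (SE 0.09, limma adjusted p = 0.003861). For the higher intensity it was 0.71 (SE 0.09, limma adjusted p = 0.00231). Both calls held in all 6 fits with a library left out and under the 11 other alternatives. The step from 1000 to 5000 lux, 0.16 on the log2 scale (95% interval -0.05 to 0.36), did not pass (limma adjusted p = 0.4553).

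stk-34 (NCU05638) showed the largest decrease that passed. Its levels were 28.0 and 29.5 RPKM in the dark, 13.8 and 17.9 at 1000 lux, and 17.2 and 19.1 at 5000 lux. All 4 light libraries lay below both dark ones, and the light conditions overlapped each other. On the log2 scale it fell by 0.83 at 1000 lux (SE 0.12, limma adjusted p = 0.002554). At 5000 lux it fell by 0.64 (SE 0.12, limma adjusted p = 0.01181). The first call held in all 6 fits with a library left out; the second was lost without either 5000 lux library, where its adjusted p reached 0.1066.

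stk-24 (NCU03796) went the same way, from 28.0 and 22.1 RPKM in the dark to 14.4 and 15 at 1000 lux and 17.7 and 15.7 at 5000 lux. Its dark libraries differed more from each other than its light ones did. It fell by 0.72 on the log2 scale at 1000 lux (SE 0.12, limma adjusted p = 0.004165). At 5000 lux it fell by 0.55 (SE 0.12, limma adjusted p = 0.02186), a call that needed dark replicate 1 and both 5000 lux libraries and was also lost without the filter and without the variance trend. stk-48 (NCU06760) had 48.6 and 42.0 RPKM in the dark, 30.9 and 30.8 at 1000 lux, and 37.2 and 36 at 5000 lux, 3 groups that did not overlap. Its fall of 0.54 on the log2 scale at 1000 lux (SE 0.09, limma adjusted p = 0.004778) held in all 6 fits with a library left out. At 5000 lux its -0.29 missed the threshold (limma adjusted p = 0.08001), and it passed with both other scalings, with voom and without dark replicate 2.

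The 4 remaining lower calls were each lost in some of the fits with a library left out. Those fits rest on fewer libraries, so a lost call does not show that the difference came from that library. stk-19 (NCU02245) had 9.74 and 8.08 RPKM in the dark against 5.54 and 6.00 at 1000 lux, with 6.16 and 6.94 at 5000 lux (-0.55 on the log2 scale at 1000 lux, SE 0.13, limma adjusted p = 0.01828). stk-57 (NCU10853) had 23.9 and 23.0 RPKM in the dark and 17.9 and 18.0 at 1000 lux, with 19.0 and 19.1 at 5000 lux, and its replicates were close in all 3 conditions (-0.37, SE 0.09, limma adjusted p = 0.02064). Both calls needed dark replicate 1 and both 1000 lux libraries. At 5000 lux their values of -0.39 and -0.28 missed the threshold; both passed with quantile normalization and with voom, and stk-57 also with median-of-ratios scaling.

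stk-4 (NCU03894) had 21.4 and 20.1 RPKM in the dark, 15.3 and 16.7 at 1000 lux, with 19.3 and 18.4 at 5000 lux (-0.36 for 1000 lux, limma adjusted p = 0.03277). stk-26 (NCU04143) had 24.4 and 20.1 in the dark, 16.4 and 17.6 at 1000 lux, and 20.4 and 20.5 at 5000 lux (-0.36, limma adjusted p = 0.04765). Both had their 2 lowest libraries at 1000 lux, and for stk-26 the dark and 5000 lux libraries overlapped. Each of these 2 calls was kept in 1 of the 6 fits that leave out a library, that without dark replicate 2. Both were also lost without the filter on low values, without the variance trend and with only the groups compared in the fit, and stk-26 with the replicate block.

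In the cell wall integrity module the MAPKK and the MAPK genes were both higher at 1000 lux, and the MAPKKK gene did not pass. mek-1 (NCU06419), the MAPKK gene, had 63.7 and 60.4 RPKM in the dark, 85.0 and 80.0 at 1000 lux, and 66.4 and 77.8 at 5000 lux. Both 1000 lux libraries were above all others, and the 5000 lux libraries were far apart (0.41 at 1000 lux, SE 0.10, limma adjusted p = 0.0185; 0.21 at 5000 lux, limma adjusted p = 0.2086). mak-1 (NCU09842), the MAPK gene, had 46.9 and 47.6 RPKM in the dark, 63.2 and 60.3 at 1000 lux, and 57.5 and 56.8 at 5000 lux. Its 3 conditions did not overlap, and the rise at 1000 lux was 1.31-fold (0.38, SE 0.08, limma adjusted p = 0.0117), while 0.27 at 5000 lux missed the threshold (limma adjusted p = 0.06163) and passed with voom (adjusted p = 0.03913).

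Leaving out 1000 lux replicate 1 ended both calls, and leaving out dark replicate 2 ended that of mek-1, as did a fit without the variance trend. mak-1 overlaps NCU09843 in the reference annotation, and the strand setting of the counting is not given in the sources used here. NCU09843 had 9.68 and 7.07 RPKM in the dark, 11.6 and 10.3 at 1000 lux, and 13.6 and 12.2 at 5000 lux. Its log2 fold change at 1000 lux, 0.36, was near the 0.38 of mak-1 and did not pass (limma adjusted p = 0.1153). Which of the 2 genes the shared reads came from was not resolved. mik-1 (NCU02234), the MAPKKK gene, lay between 12.6 and 14.1 RPKM in all 6 libraries, and its 95% interval at 1000 lux was -0.21 to 0.24 on the log2 scale. rho-1 and wsc-1, which encode a small GTPase and a wall sensor upstream of this module, did not pass in any comparison.

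The cell fusion module, which hyphae and germlings use to find and fuse with each other, had no call. mak-2 (NCU02393), the MAPK gene, had 109.6 and 112 RPKM in the dark, 107 and 113 at 1000 lux, and 114 and 116 at 5000 lux. Its 95% intervals were -0.18 to 0.16 at 1000 lux and -0.12 to 0.22 at 5000 lux on the log2 scale, both inside a change of 1.5-fold. mek-2 (NCU04612), the MAPKK gene, lay between 49.1 and 57.4 RPKM and nrc-1 (NCU06182), the MAPKKK gene, between 16.7 and 20.7. nrc-1 had its 2 highest libraries at 5000 lux (0.21, limma adjusted p = 0.1934). mak-2 and mek-2 overlap NCU02394 and NCU04613. Of 6 listed symbols of partners of this module, 4 were matched (ham-5, pp-1, so and adv-1), and 0 of these passed at adjusted p under 0.05. Over all genes tested the shares were 16.9% at 1000 lux and 9.62% at 5000 lux against dark, and 3.02% between the intensities. So few genes cannot show whether their share differs.

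**Figure D3:**
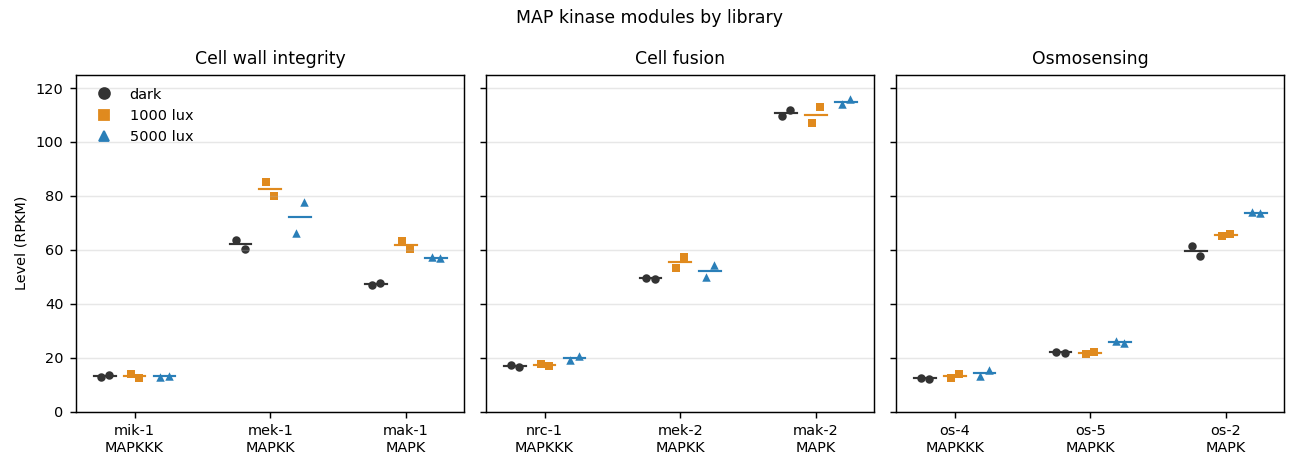
RPKM (vertical axis, from 0) of the MAPKKK, MAPKK and MAPK genes of 3 modules, left to right in each panel; each point is 1 library and each line the mean of 2 libraries of a condition. The MAPKKK gene is the lowest in every panel, and mek-1 stands above mak-1 while mak-2 stands above mek-2.

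The tiers of the modules kept their order of level in every library. mik-1 was the lowest gene of its module, with mek-1 at 4.49 to 6.38 times and mak-1 at 3.54 to 4.80 times its level, and mak-1 was at 0.730 to 0.866 times mek-1. nrc-1 was likewise the lowest of its module, with mek-2 at 2.63 to 3.35 times and mak-2 at 5.58 to 6.68 times its level. The osmosensing module, whose genes fall outside the symbol rule, also ran upward from os-4 (MAPKKK) over os-5 (MAPKK) to os-2 (MAPK), the last at 4.77 to 5.52 times os-4. Of its 6 genes os-2 alone passed, at 5000 lux against dark, where 9.62% of all genes tested did. It went from 61.6 and 57.7 RPKM in the dark to 74.0 and 73.6 (0.30, SE 0.08, limma adjusted p = 0.04172). Whether this call holds without single libraries was not examined.

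Of the 2 catalytic subunit genes of protein kinase A, neither passed. pkac-1 (NCU06240) had 33.9 and 36.5 RPKM in the dark and 39.4 to 41.4 in the 4 light libraries, which all lay above the dark ones (0.22 and 0.19, limma adjusted p = 0.1191 and 0.1996). pkac-2 (NCU00682) had 32.1 and 28.0 in the dark, 31.9 and 27.7 at 1000 lux, and 33.5 and 34.7 at 5000 lux. Of 9 listed symbols of partners, 7 were matched. These were the adenylate cyclase gene cr-1, the regulatory subunit gene mcb and the G protein genes gna-1, gna-2, gna-3, gnb-1 and gng-1. Of these, 0 passed in any comparison, where 16.9%, 9.62% and 3.02% of all genes tested did. So few genes cannot show whether their share differs.

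cot-1 (NCU07296), the NDR family kinase of tip extension, lay between 56.2 and 62.3 RPKM in all libraries. Its intervals of -0.20 to 0.18 at 1000 lux and -0.16 to 0.22 at 5000 lux bound any change. Of 8 listed symbols of partners of COT-1 or of septation initiation, 5 were matched (mob-2a, mob-2b, pod-6, gul-1 and mob-1). Of these, 0 passed in any comparison, where 16.9%, 9.62% and 3.02% of all genes tested did. nrc-2 (NCU01797), a kinase gene whose loss gives conidiation under repressing conditions, had 39.9 and 34.6 RPKM in the dark, 28.6 and 31.4 at 1000 lux, and 34.4 and 37.4 at 5000 lux. Both 1000 lux libraries were its lowest, and -0.30 missed the threshold (limma adjusted p = 0.07267); it passed with voom and without dark replicate 2.

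Among the 4 calcium/calmodulin-dependent kinases, camk-1 was by far the highest. camk-1 (NCU09123) lay between 119 and 132 RPKM, camk-2 (NCU02283) between 27.8 and 32.9, and neither passed. camk-3 (NCU06177) had 18.3 and 16.8 RPKM in the dark and 19.8 to 22.2 in the light, above the dark libraries throughout, and 0.29 at 1000 lux missed the threshold (limma adjusted p = 0.06468). It passed with median-of-ratios scaling (0.30, limma adjusted p = 0.04646) and with voom (0.31, adjusted p = 0.04268). camk-4 (NCU09212) had 38.0 and 35.9 in the dark, 35.7 and 39.0 at 1000 lux, and 47.3 and 45.7 at 5000 lux. Its 5000 lux libraries lay above the other 4, and it rose 1.26-fold against the dark (0.32, SE 0.09, limma adjusted p = 0.04702), a call that no fit with a library left out kept. Its difference between 5000 and 1000 lux, 0.31, did not pass (limma adjusted p = 0.1068).

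Of 5 listed symbols of calcium and calmodulin partners, 2 were matched. Of these, 1 passed at each intensity against dark, where 16.9% at 1000 lux and 9.62% at 5000 lux of all genes tested did. So few genes cannot show whether their share differs. cnb-1, the regulatory subunit gene of the phosphatase calcineurin, was higher at both intensities (0.40 and 0.29, SE 0.08 each, limma adjusted p = 0.007641 and 0.04156). It went from 91.8 and 87.6 RPKM in the dark to 120.2 and 117 at 1000 lux and 111 and 109 at 5000 lux. The calmodulin gene cmd had 93.8 and 90.0 RPKM in the dark and 120.0 and 101 at 1000 lux and did not pass (0.26, limma adjusted p = 0.08998).

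**Figure D4:**
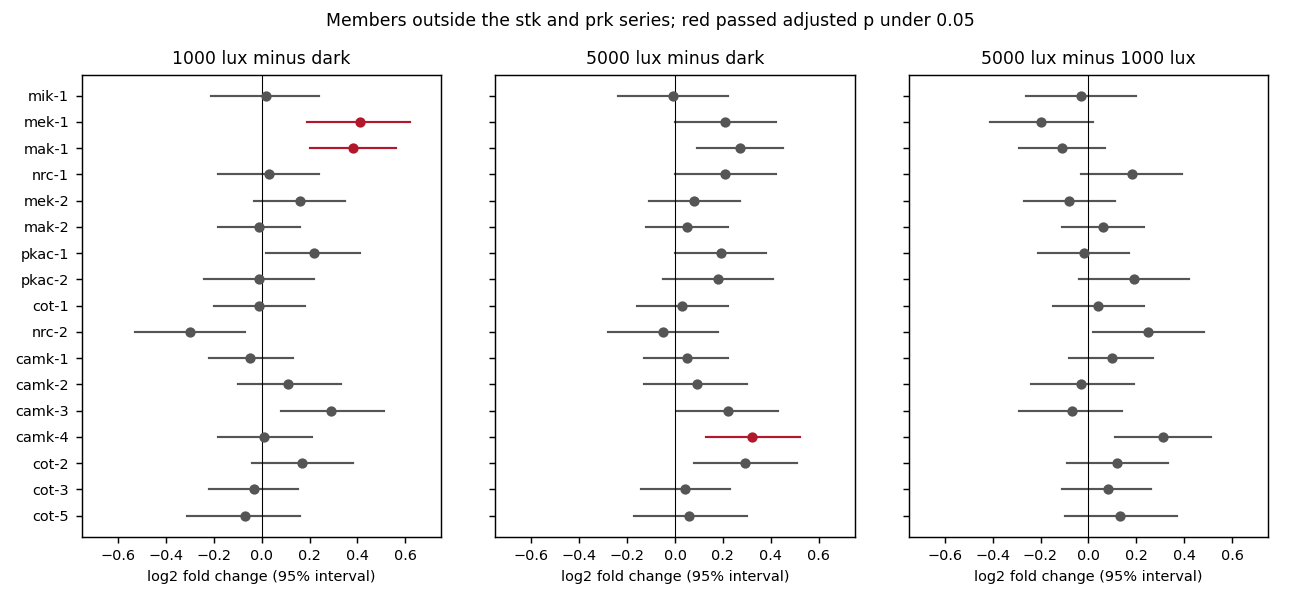
log2 fold change on the log2(RPKM + 1) scale (horizontal axes, points) with 95% intervals (lines) of the 17 members outside the stk and prk series, in 3 comparisons; red marks an adjusted p under 0.05. mek-1 and mak-1 are red at 1000 lux against dark and camk-4 at 5000 lux against dark, and none is red between the light intensities.

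In the prk series 0 of 9 genes passed at adjusted p under 0.05 in any comparison, where 16.9%, 9.62% and 3.02% of all genes did. At an unadjusted p under 0.05 there were 2 of 9 at 1000 lux and 0 at 5000 lux against dark, and 1 between the intensities, beside 31.0%, 24.9% and 15.6% of all genes. limma voom called prk-8 and prk-9 at 1000 lux. The 3 highest by mean level in the stk and prk series were stk-50 at 83.6 to 99.3 RPKM, prk-1 at 70.7 to 78.8 and stk-10 at 41.7 to 52.8. prk-8 (NCU01498), with the synonym ime-2 of a kinase known in yeast for the start of meiosis, had 33.0 and 31.0 RPKM in the dark, 25.0 and 27.4 at 1000 lux, and 33.2 and 33.5 at 5000 lux. Its 1000 lux libraries were the lowest 2, at -0.28 against the dark (limma adjusted p = 0.06166) and with 0.34 for 5000 against 1000 lux (limma adjusted p = 0.08743).

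Between 5000 and 1000 lux, 0 of the 72 members passed at adjusted p under 0.05 in limma, where 3.02% of all genes tested did (1.66% higher and 1.36% lower). At an unadjusted p under 0.05 there were 9 members (12.5%), against 15.6% of all genes, and limma voom called 1, prk-8. The members leaned to the side of 5000 lux without single calls: 48 of 72 (66.7%) had a log2 fold change above 0, against 57.6% of all genes tested, and the median was 0.084 against 0.030. In 35 of 72 members both 5000 lux libraries lay above both at 1000 lux, and in 10 of 72 below. Over all genes tested this held for 2302 and 1508 of 7841 (29.4% and 19.2%). The 2 sides together made 62.5% of the members against 48.6% of all genes.

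With median-of-ratios scaling 44 of 72 members lay above 0, against 50.8% of all genes, with medians of 0.056 and 0.003. With quantile normalization the count was also 44, against 50.2% of all genes, with medians of 0.044 and 0.001. 1000 lux was the condition with the lowest mean in 34 members (47.2%), against 37.1% of all genes tested, and 1000 lux replicate 1 was the lowest single library in 30 (41.7%), against 21.1% of all genes tested. Without that library 48 members (66.7%) had a value above 0, against 57.4% of all genes tested. The median was then 0.055, beside 0.034 over all genes, where with all libraries these were 0.084 and 0.030.

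stk-20 (NCU02885) stood apart in 1 library at 1000 lux. It had 24.7 and 26.2 RPKM in the dark, 36.6 and 27.4 at 1000 lux, and 23.6 and 23.9 at 5000 lux. It passed in no comparison (0.31 at 1000 lux, limma adjusted p = 0.1264), and did pass there with replicate 1 alone, without 1000 lux replicate 2 (0.51, limma adjusted p = 0.02413). It overlaps NCU02884, which had 44.0 and 52.8 RPKM in the dark, 108 and 66.2 at 1000 lux, and 44.9 and 43.1 at 5000 lux and was higher at 1000 lux (0.80, limma adjusted p = 0.01739). Which of the overlapping genes such reads came from was not resolved here. In the reference annotation 14 of the 79 members overlap another gene (17.7%, against 23.8% of the table), and mak-1 is the 1 among the 11 that passed.

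The 7 members below the minimum were stk-21, stk-35, stk-41, stk-42, stk-53, stk-54 and stk-56. By mean level the 3 lowest in the stk and prk series were stk-54, at 0 to 0.0981 RPKM, stk-35 and stk-56. In 5 of the 7 the highest library was dark replicate 2, and so it was in 48.6% of the 1932 untested genes of the table with any reads. stk-41 (NCU06421) had 0.385 and 0.999 RPKM in the dark, 0.0952 and 0 at 1000 lux, and was listed at 0 in both 5000 lux libraries. stk-35 (NCU05655) had 0.701 RPKM in dark replicate 2 and 0.0482 to 0.127 in the other 5. stk-56 (NCU10004) had 0.434 and 0.520 in the dark and 0 to 0.142 in the light.

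stk-36 and prk-9 were among the tested members close to the minimum. stk-36 (NCU05658) had 1.56 and 1.05 RPKM in the dark, and it met the minimum through these 2 libraries alone, with 0.514 and 0.433 at 1000 lux and 0.865 and 0.596 at 5000 lux; it did not pass (-0.64 at 1000 lux, limma adjusted p = 0.08495), though it did with voom, without the filter and without the variance trend. prk-9 (NCU04096) had 1.50 and 3.66 RPKM in the dark, 0.886 and 0.887 at 1000 lux, and 1.42 and 1.09 at 5000 lux, and did not pass (-0.86 at 1000 lux, limma adjusted p = 0.05954). Its highest value stood in dark replicate 2, and it passed in both light comparisons without dark replicate 1 (-1.31 and -1.05), when that library alone stood for darkness. stk-41 and stk-42 lie next to each other in the reference annotation, and 2 genes lie between stk-35 and stk-36 and between stk-35 and stk-56; these neighbours were singled out after their values were seen.

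**Figure D5:**
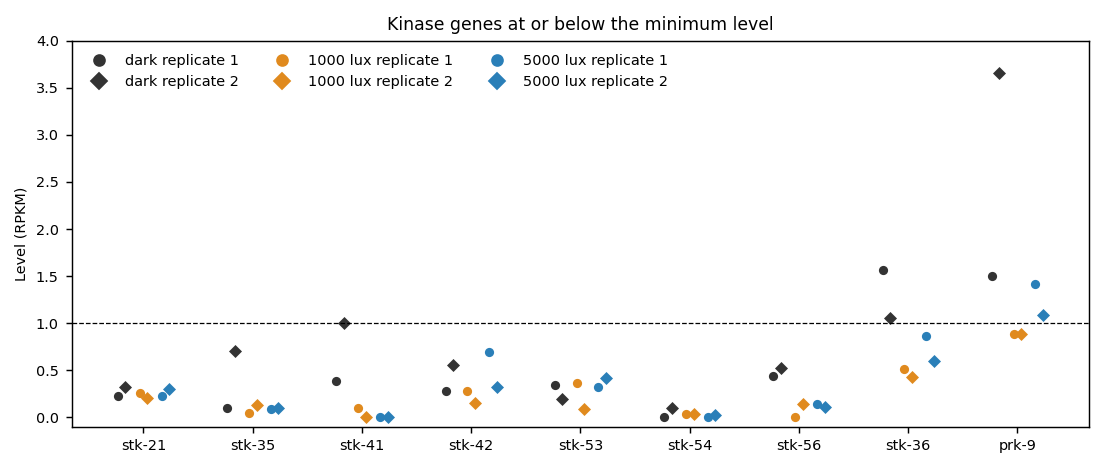
RPKM (vertical axis) of the 7 members that were not tested and of stk-36 and prk-9; each point is 1 library (colour by condition, circle replicate 1, diamond replicate 2) and the dashed line is the minimum of 1 RPKM. Dark replicate 2 is highest in stk-35, stk-41 and prk-9, and all light values of stk-41 and stk-56 are under 0.2.

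A further set of genes lay outside the symbol rule. Of 58 listed symbols of kinase modules, clock kinases, phosphatases and partners, 41 were matched and tested. Symbols without a match were not looked up by locus tag. At 1000 lux 1 was higher and 2 lower (7.32%, against 16.9% of all genes tested), at 5000 lux 2 were higher and 1 lower (7.32%, against 9.62%), and between the intensities 0 passed. The checkpoint kinase gene prd-4, whose mutation shortens the circadian period, fell from 20.8 ± 1.13 RPKM (SD, n = 2) in the dark to 12.3 ± 1.47 at 1000 lux and 15 ± 1.64 at 5000 lux (-0.72 and -0.45, SE 0.12 each, limma adjusted p = 0.003441 and 0.04089). cpc-3, which encodes the kinase that senses uncharged tRNA in amino acid starvation, fell from 20.5 and 17.0 RPKM to 11.8 and 12.0 at 1000 lux (-0.61, SE 0.11, limma adjusted p = 0.005085) and had 15.6 and 15.3 at 5000 lux. The casein kinase genes ck-1a, ck-1b and cka, between 92.6 and 127 RPKM, did not pass in any comparison. Whether the calls of genes outside the symbol rule, such as os-2, cnb-1, prd-4 and cpc-3, hold under the alternatives was not examined.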

How the data were processed

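The deposited values are RPKM, made by the authors, in 1 table covering the 6 libraries; per the submitters' processing notes CASAVA 1.8 and HISAT were used, with no roles. Build, annotation, counter and strand setting: not given in the sources used here. Symbols, locus tags and overlaps came from RefSeq's gene list for assembly NC12, which matched 10526 of 10559 genes and all 79 members. Depths and whole reads were recovered from the steps between RPKM values: of 9773 genes above 0, all 9773 gave whole reads within 0.005 reads plus a relative 3e-07.

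The test was limma 3.58.1 (R 4.3.3), fitted once to the 3 groups on log2(RPKM + 1) with a variance trend, for 7841 genes that reached 1 RPKM in 2 or more libraries. Degrees of freedom were 3 (residual) and 6.87 (prior). Calls are at a Benjamini-Hochberg adjusted p under 0.05, adjusted over those 7841 genes. Fold changes rest on the pseudocount of 1 RPKM and understate changes of low genes; a mean rise in folds is a ratio of mean RPKM. Intervals are 95% intervals of this fit. Tables and figures used Python 3.11.15, pandas 2.3.3 and matplotlib 3.10.9.

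Members and lists were chosen with earlier results of these data known. Named are all members outside stk and prk, every called member, the 3 highest and 3 lowest stk and prk members, and called genes of the lists; prk-8, prk-9, stk-20, stk-36, stk-41 and partners without a call were named after their values were seen. Alternatives were 2 pseudocounts, 2 filters, 2 scalings, no variance trend, only the groups compared, a replicate block, voom on the recovered reads and leaving out each library; 2 were added after the data were seen, robust variance and leaving out the 3 cot genes that are not kinases.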

Additional observations from a re-analysis of the deposited data

How the results depend on the processing

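At 1000 lux against dark the member counts of 3 higher and 7 lower stayed within 1.5 times under every alternative except voom (5 and 11) and leaving out libraries, where they ranged from 1 to 4 higher and from 3 to 9 lower. At 5000 lux against dark the higher count of 2 was 1 without a filter, without the variance trend, with only the 2 groups compared, with the replicate block, and without each library in turn (1 to 1), each time by loss of camk-4, and 3 with voom, which added mak-1. The lower count of 2 was 1 without a filter and without the trend, 4 with median-of-ratios scaling, 5 with quantile normalization and 5 with voom, and 0 to 3 without a library. Between 5000 and 1000 lux the counts were 0 and 0 under every alternative except voom, with 1 higher (prk-8). Fits without a library leave 1 in its group, assumed to vary like the others. Such counts include members that gained a call, so they are not counts of kept calls. The cause of these shifts was not tested. Most fold changes in the totals that follow were never called, and only the calls of the 11 members that passed could be lost. The totals therefore do not measure how stable those calls are. Over the 72 tested members, 3651 fold changes were refitted under these alternatives: 3582 kept their side of the threshold, 44 lost a call and 25 gained one, and no call changed its direction.

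The replicate block gave 3 higher and 6 lower at 1000 lux, 1 and 2 at 5000 lux, and 0 and 0 between intensities. The labels number the libraries without saying that a number marks a shared culture or day, and deviations of same-numbered libraries correlated across genes at 0.0282, -0.0872 and 0.0515, so the numbers were not taken as pairs. With 2 libraries a condition, the 95% intervals of tested members are wide for low genes, and the lowest tested member and library holds 22 reads.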
